A study of Mus musculus with 6 samples.

Results

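Ribosome assembly genes and the transcription factor Myc were compared between marrow cells of transplanted mice, labelled as derived from embryonic stem cells (ESC), and LSK cells of normal mouse marrow. The 34 genes, Myc and 33 nucleolar assembly factors, were the rows of the deposited count table whose Ensembl ID maps to their symbols in GENCODE M21. All 34 were found among its 55401 gene IDs, and all 34 passed the low-count filter that left 16211 tested genes. The study made 6 bulk libraries, 3 in each of 2 groups, each from 2000 sorted cells. The 3 LSK libraries came from Lin-Sca-1+c-Kit+ cells, the marrow fraction that holds haematopoietic stem and multipotent progenitor cells, of C57BL/6 mice aged 6 to 8 weeks, labelled wild type and untreated. The 3 ESC-derived libraries came from Lin-Sca-1+c-Kit- marrow cells of primary recipients that had been given sorted CD144+ cells, CD144 being an adhesion molecule of endothelium. They are labelled wild type, with ESCs differentiation as the treatment. Recipient strain, age and conditioning, the time after transplantation, and how donor cells were told from host cells have no entry in the labels used here. The groups therefore differ in origin, in host and in the c-Kit gate at once, and these differences cannot be told apart. Nothing in the labels says that replicates came from separate animals, so p-values measure only the spread between these libraries.

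Ribosomes are built in the nucleolus. RNA polymerase I transcribes a long precursor RNA, small nucleolar ribonucleoproteins (snoRNPs) guide its chemical modification, and assembly factors fold, cut and package it into the small 40S and the large 60S subunit. Myc binds the sequence CACGTG, an E-box, as a dimer with Max, and genes of this pathway are among its best known targets. In the blood system, quiescent stem cells are known for low protein synthesis, and lymphocytes raise Myc and ribosome assembly when antigen activates them.

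Total estimated counts ran from 41580006 to 44481252 in the LSK libraries and from 46299936 to 49269286 in the ESC-derived ones. Kit counts per library were 2081 to 2550 in LSK and 2 to 6 in the ESC-derived group, which goes with the c-Kit gates, and Ly6a, which encodes Sca-1, was read in every library. LSK replicate 2 stood apart: its level lay between those of LSK replicates 1 and 3 at 62.8% of tested genes and at 23 of the 34 genes, against 20.3% and 19.9% of tested genes for LSK replicates 1 and 3 in the same position. Its log2 values lay 0.397 (root mean square) from a mixture of the other LSK libraries, and 0.616 and 0.641 from each of them. Counts of calls and summary values are therefore also given without it. Both groups also carried transcripts of cells outside their label. The 10 T cell markers were all higher in the ESC-derived libraries, where their summed level was 12454 to 13482 CPM, counts scaled to a common library size, against 154 to 178 in LSK. The 10 stem and progenitor markers were all lower, at 0.427 to 8.33 against 2110 to 2207 CPM, with Hoxa9 at 0 in the ESC-derived group. Of 10 B cell and plasma cell markers 7 were lower, and the sum of all 10 was 274 to 384 against 41339 to 57466 CPM. Of 10 neutrophil markers 8 were higher. The other 2 went the opposite way without a call, with a log2 fold change, ESC-derived minus LSK, down to -3.03. The sum of all 10 neutrophil markers was 2266 to 4359 CPM in the ESC-derived libraries against 1064 to 1181 CPM in LSK. The part these cell types have in the results below was not tested.

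The 34 genes moved little as a group, and those that changed did so in both directions. Bop1, Nob1 and Rrp9 were higher in the ESC-derived libraries, and Gnl3, Heatr1, Fbl and Myc were lower (edgeR quasi-likelihood test, adjusted p below 0.05 over all tested genes). Their log2 fold changes, ESC-derived minus LSK, had a median of -0.12 and ran from -1.33 for Heatr1 to 0.78 for Bop1, and the median over all tested genes was -0.0661. Below 0 lay 21 of the 34, or 61.8%, against 52.2% of all tested genes. The 7 called genes are 20.6% of the 34. Of all tested genes 30.0% were called, 14.8% as higher and 15.2% as lower, and of the 8508 tested genes with a mean level inside the range of the 34, 38.4% were called, 21.9% as higher and 16.5% as lower. In this fit the called share was thus below the background and no excess was seen in either direction. The LSK and ESC-derived values did not overlap at 15 of the 34 genes, a share near the 49.8% of all tested genes. In bulk libraries, fewer cells of a type and less RNA per cell cannot be told apart, so each value is an average over all cells sorted.

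Changes beyond 2-fold were scarce. The estimated change was within 2-fold in either direction at 33 of the 34 genes, or 97.1%, Heatr1 being the exception, against 56.2% of all tested genes and 68.2% of those in the same range of level. The median size of the log2 fold change, its sign disregarded, was 0.38 for the 34 genes, 0.84 for all tested genes and 0.62 for those in the same range. The 95% interval of the log2 fold change lay wholly within 2-fold at 22 of the 34 genes, against 17.7% of all tested genes. The interval shares given here were not matched for level, on which the width of an interval depends. With LSK replicate 2 left out the estimate was within 2-fold at 33 of the 34 genes and 54.2% of tested genes, the interval at 16 of the 34 and 11.1%, and the median of the 34 was -0.15. Summed over the 34 genes the level was 4209, 4395 and 4547 CPM for LSK and 4009, 4268 and 4098 CPM for ESC-derived libraries. These sums overlapped between the groups.

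The calls rested on the scaling and on single libraries. With library totals in place of TMM scaling the median of all tested genes moved by -0.25 and that of the 34 genes to -0.36. Then 0 of the 34 were higher and 9 lower by edgeR, with 2 and 16 at an unadjusted p below 0.05. Of all 16211 tested genes 1756 were then higher and 3051 lower, or 29.7% together. The share of higher genes among all calls was 36.5% under that scaling and 49.3% under TMM. DESeq2 called 3 of the 34 higher and 7 lower, and 2919 and 3380 of all 16211 tested genes, or 38.9% together. Without LSK replicate 2 only Gnl3 kept its call, so that 0 genes were higher and 1 lower, with 3 and 5 at an unadjusted p below 0.05. Over all tested genes that omission brought the calls from 4861 to 2716.

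**Figure D1:**
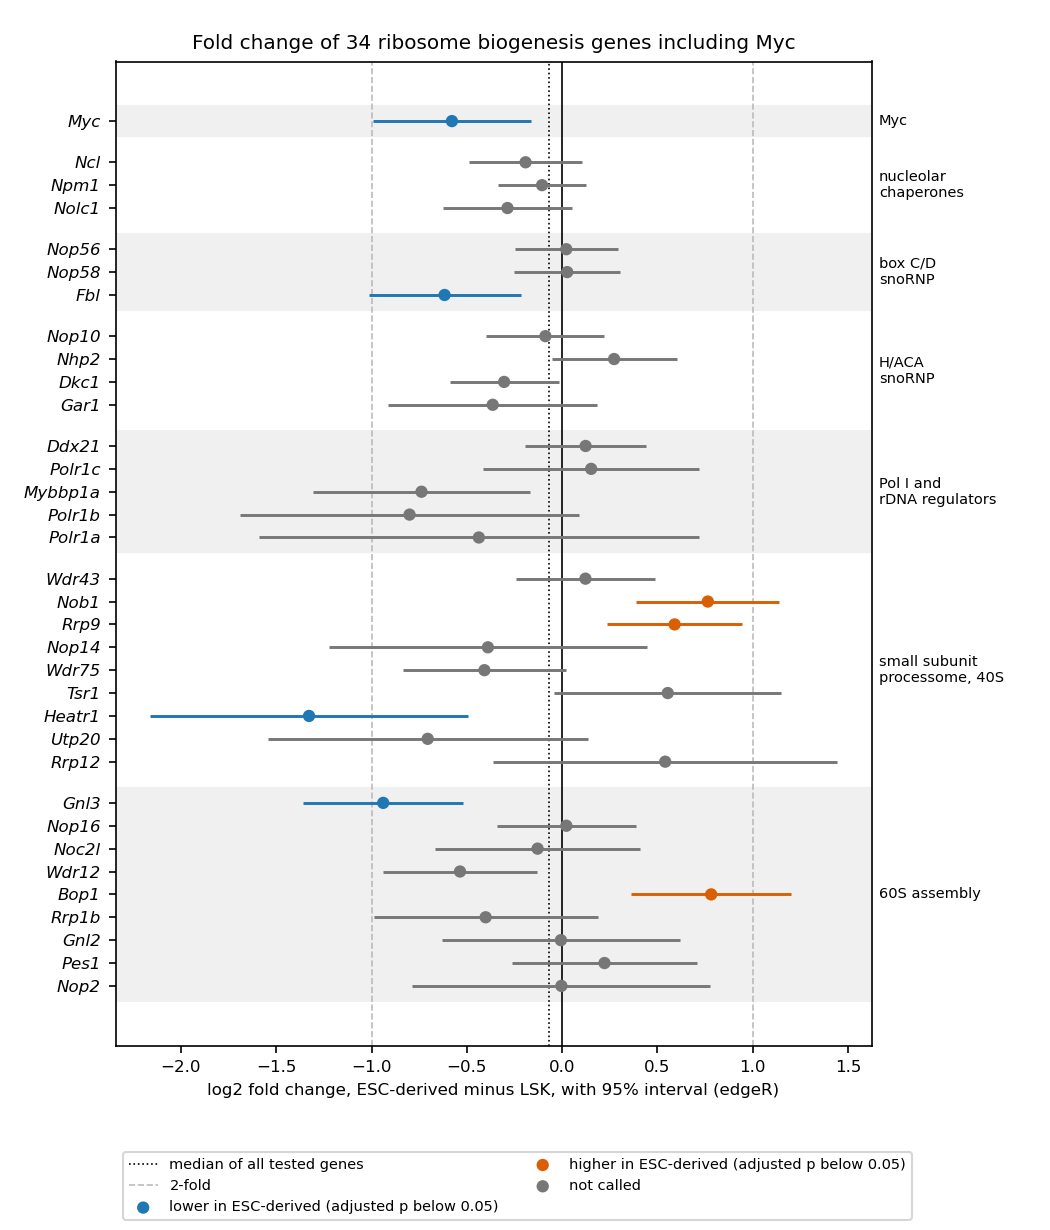
Log2 fold change of each of the 34 genes, ESC-derived minus LSK, with its 95% interval from edgeR, ordered by role and then by level. The intervals, which are not adjusted for the number of genes, exclude 0 at the 7 called genes. They also exclude 0 at Dkc1, Wdr12 and Mybbp1a, which were not called. Only the point of Heatr1, at -1.33, lies beyond the dashed 2-fold lines.

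**Figure D2:**
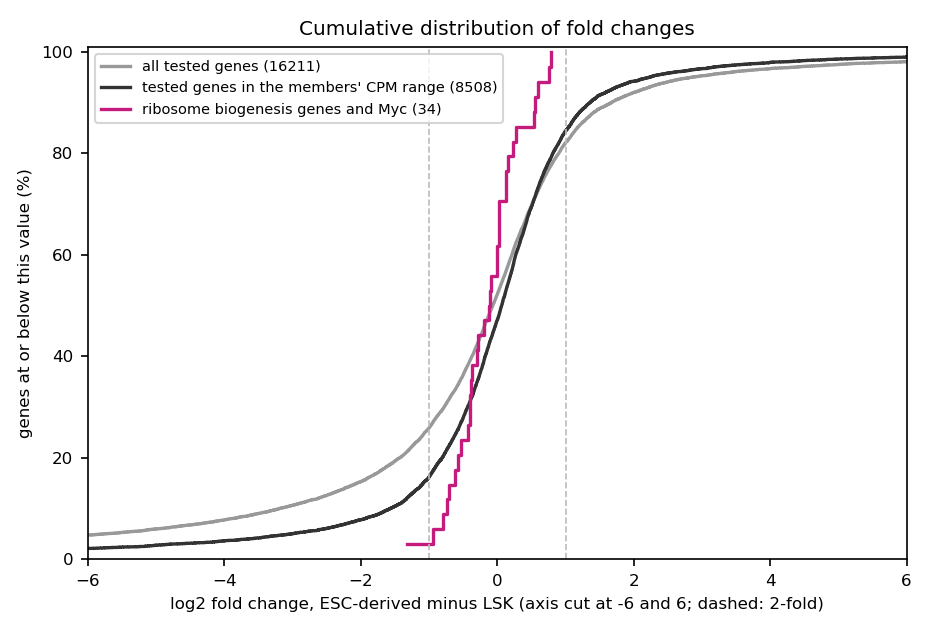
Share of genes (y axis, percent) at or below each log2 fold change (x axis) for the 34 genes, for all 16211 tested genes and for the 8508 tested genes in the same range of mean CPM. The curve of the 34 genes climbs from -1.33 to 0.78, while 56.2% of all tested genes lie between the dashed 2-fold lines.

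Myc (chr15:61985391-61990374, plus strand, mm10) fell. It read 173, 151 and 140.0 CPM in the 3 LSK libraries, in replicate order, and 83.1, 124 and 103 CPM in the 3 ESC-derived ones, where CPM are scaled with TMM throughout. Every ESC-derived library was below every LSK library, the LSK maximum being replicate 1 and the ESC-derived minimum replicate 1. The fall was 1.49-fold (log2 fold change -0.58 ± 0.17, SE, n = 3 and 3, adjusted p = 0.0463, edgeR), with a 95% interval of -0.99 to -0.16. This call lies near the threshold and was lost without LSK replicate 1, 2 or 3 (adjusted p = 0.140, 0.119 and 0.0711), without ESC-derived replicate 1 or 3 (0.0922 and 0.101) and with no low-count filter (0.0539). Over the 16 alternatives its adjusted p ran from 0.00667 to 0.140, and the direction was the same in each.

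The wider Myc network holds factors that dimerise with Max, the Mlx and Mondo factors beside them, and Zbtb17, which binds Myc itself. Of its 11 tested genes 2 were higher and 3 lower, or 18.2% and 27.3%, with a median log2 fold change of -0.61. Of all tested genes 14.8% were higher and 15.2% lower. When LSK replicate 2 was left out, 2 were higher and 2 lower. Mxd3, a repressor that dimerises with Max, read 4.303, 6.25 and 10.4 CPM in LSK and 34.6, 41.6 and 36.5 CPM in ESC-derived libraries (2.43 ± 0.36, adjusted p = 0.00351). Mlx, the Max-like partner of the Mondo factors, rose as clearly, from 18.7, 18.9 and 20.6 to 53.3, 69.4 and 53.7 CPM (1.599 ± 0.18, adjusted p = 0.00112). Mxi1, another Max-binding repressor, fell from 38.2, 33.3 and 34.4 to 13.6, 15.7 and 14.2 CPM (-1.28 ± 0.19, adjusted p = 0.00351). For these 3 genes no ESC-derived library reached into the LSK range. Mlxip, which encodes the Mondo factor MondoA, fell too (-0.91 ± 0.15, adjusted p = 0.00555), and all 4 calls held under the 16 alternatives. The third fall, named after its values were seen, was Mycn, the Myc paralogue known from stem and progenitor cells. It read 22.3, 24.7 and 24.2 CPM in LSK and was at 0 in ESC-derived replicates 1 and 3, with 1.27 CPM, all 54 counts of the group, in replicate 2 (adjusted p = 0.0385). That call was lost without any one LSK library and without ESC-derived replicate 1 or 3, with an adjusted p of up to 0.10005. Mycn went with the stem and progenitor markers, whose summed level in the ESC-derived group was at most 8.33 CPM.

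Short promoter stretches around the E-box are shown because CACGTG is the sequence that Myc and Max bind. RefSeq promoter windows (GRCm38.p6, 250 bases before to 50 after the start) matched 28 of the 34 genes, and Myc, Npm1, Fbl, Gnl2, Bop1 and Rrp12 had no entry. The palindrome CACGTG, which reads the same on both strands, lay in the windows of 6 of the 28 genes, or 21.4%, against 11.5% of 10587 tested genes with a window and 8.09% of all 27025 genes. Each is shown 5′ to 3′ on the strand of its gene, with the E-box in capitals and up to 10 flanking bases.
Nop2: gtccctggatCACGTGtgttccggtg
Utp20: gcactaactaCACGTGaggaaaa
Pes1: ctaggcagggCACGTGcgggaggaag
Mybbp1a: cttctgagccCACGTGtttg
Tsr1: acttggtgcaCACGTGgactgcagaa
Wdr43: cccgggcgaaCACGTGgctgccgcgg

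The Nop2 window is chr6:125131813-125131838 on the plus strand, and its E-box begins at -60, counted so that +1 is the start site. The other 5 lie just downstream of the start. Utp20 (chr10:88826765-88826787, minus strand) has it at 38, Mybbp1a (chr11:72441357-72441376, plus strand) at 41, Tsr1 (chr11:74898094-74898119, plus strand) at 25, Wdr43 (chr17:71616222-71616247, plus strand) at 18 and Pes1 (chr11:3963967-3963992, plus strand) at 3. None of the 6 was called by edgeR, while Mybbp1a was lower by DESeq2 and at an unadjusted p below 0.05. Their median log2 fold change was 0.0595, with a range of -0.74 for Mybbp1a to 0.55 for Tsr1.

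The variant CACGCG, searched on both strands, lay in 9 of the 28 windows, or 32.1%, against 19.1% of tested genes. The GC box GGGCGG was in 71.4% against 66.0%, the ETS core CCGGAAG in 28.6% against 19.7%, the NRF1 core TGCGCA in 10.7% against 15.4%, and CCAAT in 32.1% against 42.9%. A match is a description of the letters and not a site of binding.

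**Figure D3:**
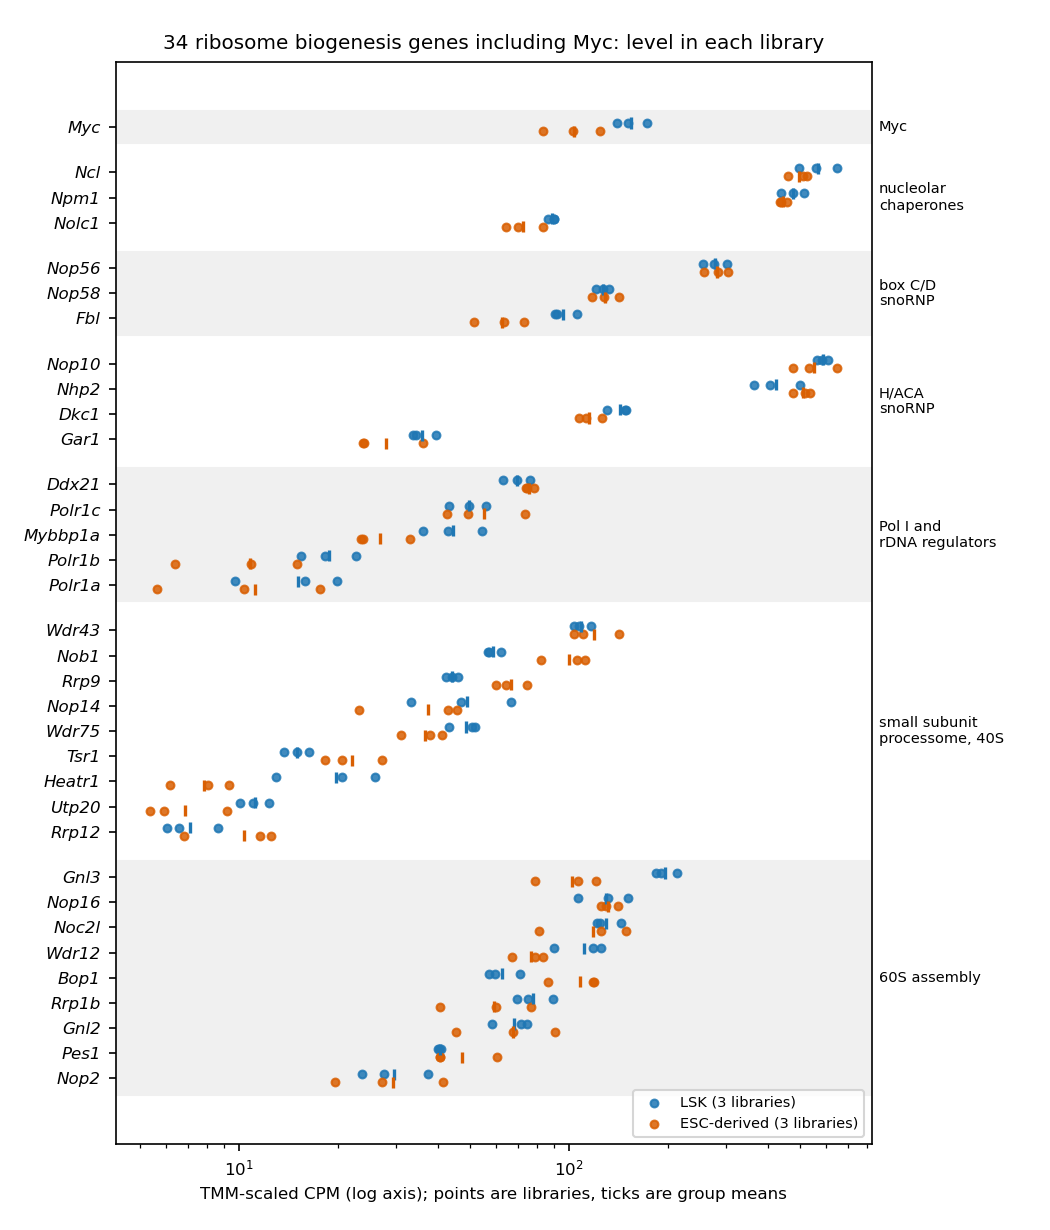
TMM-scaled CPM of the 34 genes on a log axis, grouped by role, with 1 point per library and a tick at each group mean. LSK and ESC-derived points interleave at most genes and separate at 15, such as Gnl3, with 183 to 213 CPM in LSK and 78.7 to 121 CPM in ESC-derived libraries.

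None of the 3 nucleolar chaperones was called, by edgeR, by DESeq2 or at an unadjusted p below 0.05. Nucleolin (Ncl), which binds precursor rRNA, read 497, 561 and 649.8 CPM in LSK and 460.1, 525 and 511 CPM in ESC-derived libraries (-0.19 ± 0.13, adjusted p = 0.312). Nucleophosmin (Npm1), a chaperone of ribosomal proteins and histones, read 439.5, 517 and 479 and 438, 458 and 439 CPM (-0.10 ± 0.10, adjusted p = 0.484). Both overlapped between the groups, and the 95% intervals of -0.49 to 0.11 and -0.34 to 0.13 include 0 and leave out a 2-fold change. With library totals as the scaling both were called lower. Processed pseudogenes with at least 95% identity to Npm1 took counts of up to 3.64% of its own, so a small part of its reads may be split. Nolc1, which encodes the snoRNP chaperone Nopp140, read 90.3, 89.8 and 86.2 CPM in LSK and 64.6, 70.1 and 83.5 CPM in ESC-derived libraries. All 3 ESC-derived values were below the LSK values, but the difference did not pass (-0.29 ± 0.14, adjusted p = 0.185).

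Of the 3 core proteins of box C/D snoRNPs, which place methyl groups on rRNA, 1 was called. Fibrillarin (Fbl; chr7:28169710-28179269, plus strand), the methyltransferase of the particle, read 91.96, 90.8 and 106 CPM in the 3 LSK libraries, in replicate order, and 72.8, 51.6 and 63.6 CPM in the 3 ESC-derived ones. The groups did not overlap, and the ESC-derived values were all low. The fall was 1.53-fold (-0.62 ± 0.17, adjusted p = 0.0320, 95% interval -1.02 to -0.22). Its call was lost without LSK replicate 1, 2 or 3 (adjusted p = 0.0676, 0.0827 and 0.0934) and without ESC-derived replicate 2 or 3 (0.0693 and 0.0677). A transcript annotated to Tulp4 matches Fbl over 690 bp at 99.6% identity, and Tulp4 held 13.9% as many counts as Fbl, so Fbl counts are uncertain to that extent. Nop56, a scaffold of the same particle, read 254, 302 and 274 CPM in LSK and 304, 282 and 257 CPM in ESC-derived libraries (0.0222 ± 0.11, adjusted p = 0.909). Its partner Nop58 read 121, 127 and 132 and 142, 128 and 118 CPM (0.0270 ± 0.12, adjusted p = 0.892). Both scaffold genes overlapped fully between the groups, with 95% intervals of -0.25 to 0.29 and -0.25 to 0.31, and their signs flipped under library totals. Whether Fbl changed more than the scaffold genes was not tested, and its interval overlaps theirs.

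The H/ACA snoRNP proteins, which convert uridine to pseudouridine and also belong to telomerase, gave no call by edgeR among 4 genes, with 0 higher and 1 lower at an unadjusted p below 0.05. Dyskerin (Dkc1), the pseudouridine synthase, read 149, 148 and 129.9 CPM in LSK and 108, 126 and 112 CPM in ESC-derived libraries, the latter all lower (-0.30 ± 0.12, adjusted p = 0.106). It passed with DESeq2 (adjusted p = 0.0347) and with library totals (0.0211). Nhp2, an RNA-binding core protein, read 364, 406 and 501 CPM in LSK and 478, 520.1 and 537 CPM in ESC-derived libraries (0.27 ± 0.14, adjusted p = 0.192). Here LSK replicate 3 exceeded ESC-derived replicate 1, so the groups overlapped. Nop10, which bridges dyskerin and Nhp2, read 611, 585 and 566 and 534, 648 and 476 CPM (-0.0875 ± 0.13, adjusted p = 0.670). Gar1, a late-joining subunit, read 33.6, 39.6 and 34.4 and 36.1, 23.7 and 23.9 CPM (-0.36 ± 0.23, adjusted p = 0.296), with ESC-derived replicate 1 inside the LSK range.

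Per kilobase of the annotated transcript, the order of levels within each particle was the same in both groups, apart from one pair. Among H/ACA genes the mean level was highest for Nop10, at 529 ± 20.7 CPM per kb in LSK and 498 ± 78.6 CPM per kb in ESC-derived libraries (SD, n = 3). Nhp2 followed at 406 ± 67.4 and 491 ± 29.2 CPM per kb, and the Nop10 and Nhp2 values overlapped in the ESC-derived group. Dkc1 was at 50.8 ± 3.82 and 41.1 ± 3.36 CPM per kb, and Gar1 was lowest at 28.2 ± 2.58 and 21.9 ± 5.59 CPM per kb. Among box C/D genes Nop56 led, at 147.5 ± 12.6 and 149.7 ± 12.7 CPM per kb. Fbl, at 80.3 ± 6.92 CPM per kb, lay above Nop58, at 73.9 ± 3.17 CPM per kb, in each LSK library, although their ranges over these libraries overlapped. In the ESC-derived libraries Fbl, at 52.4 ± 8.90 CPM per kb, was below Nop58 at 75.3 ± 7.03 CPM per kb in every library.

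RNA polymerase I and its regulators gave no call among 5 genes, with a median log2 fold change of -0.44. By edgeR 1 of them was lower and 0 higher at an unadjusted p below 0.05, and DESeq2 called 1 lower. Polr1a, the largest subunit, read 9.72, 15.9 and 19.8 CPM in LSK and 5.63, 17.5 and 10.4 CPM in ESC-derived libraries (-0.44 ± 0.49, adjusted p = 0.562). It overlapped widely, and its 95% interval of -1.59 to 0.72 does not leave out a 2-fold fall. Polr1b, the second-largest subunit, read 22.6, 18.2 and 15.4 CPM in LSK and 6.39, 10.9 and 15.02 CPM in ESC-derived libraries, with no overlap (-0.80 ± 0.37, adjusted p = 0.162). Polr1c, a subunit shared with RNA polymerase III, read 49.6, 43.3 and 56.04 and 73.6, 49.3 and 42.8 CPM (0.15 ± 0.24, adjusted p = 0.687), the highest value being ESC-derived replicate 1. The levels of these subunits thus scattered between libraries of 1 group about as much as between groups. For Polr1b, which did not overlap, the highest ESC-derived value of 15.02 CPM lay just below the lowest LSK value of 15.4 CPM.

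Mybbp1a, a nucleolar regulator of rDNA transcription and rRNA processing and one of the genes whose E-box is shown, was the nearest of the 5 to a call. It read 36.2, 43.01 and 54.7 CPM in the 3 LSK libraries, in replicate order, and 23.7, 33.1 and 23.5 CPM in the 3 ESC-derived ones. All ESC-derived values were lower (-0.74 ± 0.24, adjusted p = 0.0582), and it passed under 6 of the 16 alternatives, DESeq2 (0.0120) and limma-voom (0.0472) among them. Its exons overlap those of Spns2 on the opposite strand by 131 bp, and the cDNA kit does not mark strand. Ddx21, an RNA helicase of the nucleolus, read 76.1, 69.4 and 62.9 CPM in LSK and 74.4, 74.2 and 78.4 CPM in ESC-derived libraries (0.12 ± 0.13, adjusted p = 0.550), and its groups overlapped.

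The small subunit processome, the large particle that folds and cuts the 40S part of the precursor, held calls in both directions. Of 9 genes of this particle and of later 40S maturation 2 were higher and 1 lower, with a median log2 fold change of 0.12. These shares, 22.2% and 11.1%, stand against 21.9% and 16.5% of tested genes in the range of level of Myc and the assembly factors. The share called higher was thus near that background, and the share called lower was below it. Nob1 (chr8:107412486-107425051, minus strand), the endonuclease that makes the last cut of 18S rRNA in the cytoplasm, read 62.3, 57.2 and 56.9 CPM in the 3 LSK libraries, in replicate order, and 82.1, 112 and 106 CPM in the 3 ESC-derived ones. Every ESC-derived library was above every LSK library. The rise was 1.699-fold (0.76 ± 0.16, adjusted p = 0.0117, 95% interval 0.39 to 1.14) and was lost without LSK replicate 2 (adjusted p = 0.0707) and with library totals (0.0637).

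Rrp9 (chr9:106475963-106485424, plus strand), a protein of the U3 snoRNP at the heart of the processome, read 42.4, 45.98 and 44.2 CPM in LSK and 74.8, 60.2 and 64.6 CPM in ESC-derived libraries. The LSK values were tight and all below the ESC-derived ones. Its rise was 1.51-fold (0.59 ± 0.15, adjusted p = 0.0242, 95% interval 0.24 to 0.94). It was lost without LSK replicate 1, 2 or 3 (adjusted p = 0.0719, 0.101 and 0.0659), without ESC-derived replicate 1 (0.0558) and with library totals (0.155).

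Heatr1 (chr13:12395027-12440289, plus strand), the homologue of yeast Utp10 and a factor that also acts in rDNA transcription, fell the most of the 34 genes. It read 25.7, 20.5 and 12.96 CPM in the 3 LSK libraries, in replicate order, and 8.05, 9.34 and 6.18 CPM in the 3 ESC-derived ones. The groups did not overlap, although the LSK values spread about as widely as the gap between the group means. The fall was 2.51-fold (-1.33 ± 0.35, adjusted p = 0.0291, 95% interval -2.16 to -0.49). Its call was lost without LSK replicate 1 or 2 (adjusted p = 0.102 and 0.104) and without ESC-derived replicate 1, 2 or 3 (0.0642, 0.0503 and 0.0716).

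The other 40S genes did not pass. Utp20, another large scaffold of the processome, read 11.02, 10.1 and 12.3 CPM in LSK and 5.37, 5.94 and 9.19 CPM in ESC-derived libraries, with every ESC-derived value lower (-0.71 ± 0.35, adjusted p = 0.190). Wdr75, of the subcomplex that joins the precursor first, read 51.97, 50.8 and 43.2 and 30.99, 37.96 and 41.1 CPM, also without overlap (-0.41 ± 0.18, adjusted p = 0.141). Its subcomplex partner Wdr43 overlapped, with 116, 103 and 107 and 110.1, 104 and 142 CPM (0.12 ± 0.15, adjusted p = 0.605). Tsr1, a GTPase-like factor of cytoplasmic 40S maturation, was the reverse of Utp20, with all ESC-derived values higher. It read 13.7, 14.97 and 16.2 CPM in LSK and 20.5, 27.1 and 18.3 CPM in ESC-derived libraries (0.55 ± 0.25, adjusted p = 0.150), and 1159 bp of its exons overlap Srr on the opposite strand, whose 2543 counts stand beside 4975 for Tsr1, so these reads cannot be told apart by strand. Nop14, which binds Emg1 and Noc4l, read 33.2, 46.9 and 66.7 and 43.01, 45.9 and 23.2 CPM (-0.39 ± 0.35, adjusted p = 0.466), with overlap and a wide spread in both groups. Rrp12, a factor in export of both subunits known from yeast, read 6.03, 6.600 and 8.63 and 12.5, 11.6 and 6.83 CPM and overlapped too (0.54 ± 0.38, adjusted p = 0.345).

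Among 9 genes of 60S assembly 1 was higher and 1 lower, with a median log2 fold change of -0.00617. Each is 11.1%, against 21.9% higher and 16.5% lower among tested genes in the range of level of the 34. Gnl3 (chr14:31012433-31019152, minus strand), which encodes nucleostemin, a nucleolar GTPase known for high expression in stem and dividing cells, carried the lowest adjusted p of the 34 genes. It read 183, 191 and 213 CPM in the 3 LSK libraries, in replicate order, and 121, 106 and 78.7 CPM in the 3 ESC-derived ones. All ESC-derived libraries were far below the LSK range. The fall was 1.92-fold (-0.94 ± 0.18, adjusted p = 0.00827, 95% interval -1.36 to -0.52), and it alone of the 7 calls held under all 16 alternatives, with an adjusted p of 4.05e-06 to 0.0327. Gnl2, a related GTPase of 60S export, read 58.5, 74.4 and 71.7 CPM in LSK and 45.4, 67.5 and 90.8 CPM in ESC-derived libraries (-0.00617 ± 0.26, adjusted p = 0.990), the ESC-derived values lying on both sides of the LSK range. Whether the paralogues differ in their change was not tested.

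Bop1, Pes1 and Wdr12 form the PeBoW complex, which is needed to process the 60S part of the precursor. Bop1 (chr15:76452989-76477277, minus strand) read 70.9, 57.3 and 59.7 CPM in the 3 LSK libraries, in replicate order, and 119, 86.3 and 118 CPM in the 3 ESC-derived ones, with no overlap. It rose 1.72-fold (0.78 ± 0.18, adjusted p = 0.0164, 95% interval 0.36 to 1.20), and the call was lost without LSK replicate 2 or 3 (adjusted p = 0.0854 and 0.0596) and with library totals (0.0936). Wdr12 read 90.1, 118 and 125 CPM in LSK and 83.4, 67.3 and 78.9 CPM in ESC-derived libraries, the latter all lower. It narrowly missed the threshold (-0.54 ± 0.17, adjusted p = 0.0538) and passed under 8 of the 16 alternatives, with DESeq2 at 0.00999 and RLE scaling at 0.0454. The Wdr12 transcript matches the pseudogene Gm4879 over 1272 bp, with 1.18% as many counts, and stretches of 208 bp in Ppip5k1 and 206 bp in Tmod3, whose whole-gene counts were 9.58% and 97.3% of its own, so its counts and ratios are uncertain to an extent that was not measured. Pes1 read 40.05, 40.4 and 41.1 and 40.7, 40.6 and 60.5 CPM (0.22 ± 0.20, adjusted p = 0.476), near equal but for ESC-derived replicate 3. The exons of Bop1 overlap those of Mroh1 on the opposite strand by 50 bp.

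The remaining 60S genes showed no clear difference. Rrp1b read 74.97, 69.6 and 89.5 CPM in LSK and 76.6, 59.9 and 40.8 CPM in ESC-derived libraries (-0.40 ± 0.25, adjusted p = 0.283). Nop2, an rRNA methyltransferase, read 37.4, 27.4 and 23.5 and 27.2, 19.5 and 41.4 CPM (-0.00362 ± 0.33, adjusted p = 0.996). Both overlapped, and the ESC-derived libraries spread more widely than the LSK ones. Nop16 read 151, 131 and 106 and 125, 140.5 and 129 CPM (0.0225 ± 0.15, adjusted p = 0.932), the ESC-derived values falling within the LSK range. Noc2l, which also binds histones, read 121, 124 and 144 and 81.2, 125 and 149 CPM (-0.13 ± 0.23, adjusted p = 0.722), with ESC-derived replicate 1 low and replicate 3 high. The 95% intervals of Nop2 (-0.79 to 0.78) and Nop16 (-0.34 to 0.39) lie within 2-fold.

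Ratios between genes of 1 complex within a library do not depend on the scaling, and 6 of 12 such ratios did not overlap between the groups. Of single tested genes 49.8% did not overlap, which is another measure, and no share was taken for ratios of other gene pairs. Leaving out a library can only keep or raise the count of such ratios, and without LSK replicate 2 it was 7. The ratios are given as a description, with no test, and those of 1 complex share genes, so they are not independent. The log2 ratio of Fbl to Nop56 was -1.47, -1.73 and -1.38 for the LSK libraries in replicate order and -2.06, -2.45 and -2.01 for the ESC-derived ones, a difference of means of -0.65. That of Nop56 to Nop58 was 1.07, 1.25 and 1.05 and 1.10, 1.14 and 1.13, all 6 libraries lying within a narrow band. In PeBoW the log2 ratio of Bop1 to Wdr12 was -0.35, -1.04 and -1.07 in LSK and 0.51, 0.36 and 0.58 in ESC-derived libraries, a difference of 1.30 and the largest of the 12. The ratio of Pes1 to Wdr12 differed by 0.72 and that of Bop1 to Pes1 by 0.58, both without overlap. For H/ACA, Dkc1 to Nhp2 was -1.29, -1.45 and -1.95 in LSK and -2.15, -2.05 and -2.26 in ESC-derived libraries, also without overlap, and the other 5 H/ACA ratios overlapped.

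**Figure D4:**
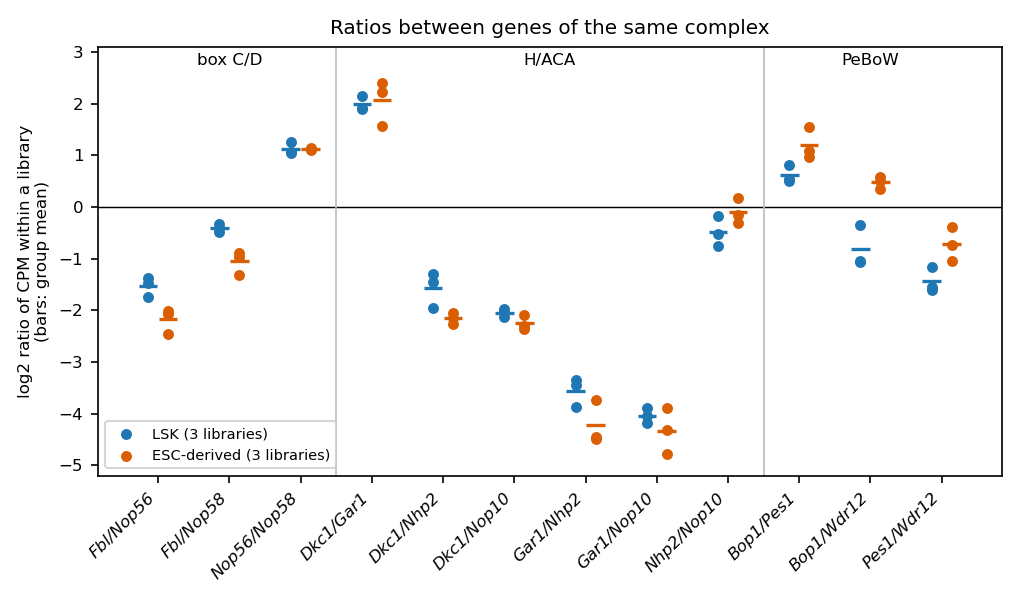
Log2 ratio of CPM (y axis) for 12 gene pairs of the box C/D, H/ACA and PeBoW complexes, with 1 point per library and bars at the group means. Bop1/Wdr12 is -0.35 or less in LSK and 0.36 or more in ESC-derived libraries, while Nop56/Nop58 lies between 1.05 and 1.25 in all 6.

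Some of the genes share a feature that the choice of symbols did not use. In GENCODE M21 annotated snoRNAs lie within 7 of the 34 genes, or 20.6%, against 1.62% of 12705 tested protein-coding genes. These hosts are Nop56 with 5 snoRNAs, Nop58 with 4, Ncl, Gnl3 and Wdr43 with 3 each, Tsr1 with 2 and Dkc1 with 1. Of the 7 hosts 0 were higher and 1, Gnl3, was lower by edgeR, while DESeq2 and an unadjusted p below 0.05 added Dkc1 as lower, with a median log2 fold change of 0.0222. The 27 others held 3 higher and 3 lower genes and a median of -0.13. Of all tested genes 14.8% were higher and 15.2% lower, and whether hosts and others differ was not tested. The poly(A)-primed cDNA reads the spliced host transcript, and the snoRNAs themselves were not analysed here.

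Other genes of the pathway, from lists that were drawn up with earlier results of these data known, are set beside the 34. Of 37 further genes of 40S assembly 8 were higher and 0 lower, with a median log2 fold change of 0.20. The 8 are 21.6%, near the 21.9% called higher among tested genes in the range of level of the 34. In that range 16.5% were called lower. At an unadjusted p below 0.05, 11 were higher and 2 lower by edgeR, while DESeq2 called 2 as lower and limma-voom 1. Dcaf13, a processome protein, read 74.1, 67.4 and 65.5 CPM in LSK and 200.004, 167 and 183 CPM in ESC-derived libraries (1.41 ± 0.12, adjusted p = 0.000360). Pno1, which holds Nob1 inactive on the late 40S particle, read 34.5, 45.1 and 45.4 and 95.9, 88.8 and 95.7 CPM (1.17 ± 0.16, adjusted p = 0.00232). In both, the ESC-derived libraries were all far above LSK. The rises numbered 5 without LSK replicate 2 and 5 with library totals, and those of Dcaf13 and Pno1 held under all 16 alternatives.

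Of 42 further 60S genes 5 were higher and 3 lower, or 11.9% and 7.14%, both below the shares of all tested genes, with a median of 0.0624. Nip7, a 60S factor that also bears on 18S processing, rose (1.29 ± 0.15, adjusted p = 0.00120), as did Brix1, an early 60S factor (0.96 ± 0.15, adjusted p = 0.00461). Ppan, a homologue of yeast Ssf1, fell (-0.52 ± 0.11, adjusted p = 0.0123), and so did Nvl, an ATPase that releases assembly factors (-0.74 ± 0.21, adjusted p = 0.0351). Both falls were lost without LSK replicate 2, which left 3 genes higher and 0 lower by edgeR, and library totals left 3 higher. The others called, named after their values were seen, were Ebna1bp2, Mak16 and Nmd3 as higher and Efl1 as lower. The Nvl call also went without LSK replicate 1 or any one ESC-derived library, with an adjusted p of up to 0.109.

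Of 18 further RNA polymerase I genes 1 was higher and 3 lower, or 5.56% and 16.7%, against 14.8% and 15.2% of all tested genes. Polr1d, a subunit shared with RNA polymerase III, rose (0.89 ± 0.16, adjusted p = 0.00696), while Znrd1, a small subunit, fell (-0.68 ± 0.15, adjusted p = 0.0147). Tcof1, which encodes treacle, a nucleolar partner of the polymerase, fell too (-0.79 ± 0.22, adjusted p = 0.0350). The third fall, named after its values were seen, was that of Twistnb, another subunit. The calls of Znrd1 and Tcof1 were lost without LSK replicate 1 or 2, and that of Tcof1 also without LSK replicate 3 or ESC-derived replicate 2, with adjusted p of up to 0.0593 and 0.104. Without LSK replicate 2, 1 gene of this list was higher and 0 were lower. Of 9 further snoRNP genes 0 were higher and 1 lower by edgeR, with 0 and 3 at an unadjusted p below 0.05 and 0 and 3 called by DESeq2. By edgeR 11.1% were thus lower, against 15.2% of all tested genes. The fall was that of Ruvbl2, an ATPase of snoRNP assembly (-0.67 ± 0.18, adjusted p = 0.0325), and it was lost without any one LSK library or ESC-derived replicate 2, with an adjusted p of up to 0.101.

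Of 13 genes of the RNA exosome, which trims rRNA precursors, 4 were higher and 2 lower, or 30.8% and 15.4%. The shares of all tested genes were 14.8% and 15.2%. Mphosph6, a cofactor of that trimming, rose (1.19 ± 0.13, adjusted p = 0.000998), and so did the core subunit Exosc4 (0.66 ± 0.11, adjusted p = 0.00587), whose call was lost with library totals (0.0685). Another core subunit, Exosc5, fell (-0.95 ± 0.19, adjusted p = 0.0116), as did the nuclease Dis3 (-1.04 ± 0.29, adjusted p = 0.0343). The core subunits Exosc8 and Exosc9, named after their values were seen, were the other genes called higher. The Dis3 call was lost without any one LSK library or without ESC-derived replicate 1 or 2, with an adjusted p of up to 0.123. Without LSK replicate 2, 2 genes of the list were higher.

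Of 11 tested genes that host snoRNAs without encoding an assembly protein, 0 were higher and 2 lower by edgeR, with a median log2 fold change of -0.60. The 2 are 18.2%, near the 15.2% called lower among all tested genes. At an unadjusted p below 0.05, 0 were higher and 5 lower, and DESeq2 called 0 and 5. Leaving out LSK replicate 2 left 0 higher and 1 lower. Gas5, the best known of them, read 393, 362 and 376 CPM in LSK and 184, 202 and 121 CPM in ESC-derived libraries, the latter all far lower (-1.16 ± 0.19, adjusted p = 0.00531). Epb41l4aos fell as well (-1.90 ± 0.49, adjusted p = 0.0271), a call lost without any one LSK library or ESC-derived replicate 1, with an adjusted p of up to 0.0780. The summed level of the list was 588.6 to 631.5 CPM in LSK and 268 to 382 CPM in ESC-derived libraries.

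Of 33 well known Myc targets outside the ribosome 8 were higher and 6 lower, with a median log2 fold change of -0.22. These shares, 24.2% and 18.2%, are near the 21.9% and 16.5% of tested genes in the range of level of the 34. Nme1, a nucleoside diphosphate kinase, read 474, 474 and 461 CPM in LSK and 1191, 1096 and 1191 CPM in ESC-derived libraries (1.30 ± 0.0869, adjusted p = 0.000115). Ccnd2, the D-type cyclin of lymphocytes, rose to a like extent, from 416, 414 and 429 to 1047, 1049 and 962 CPM (1.28 ± 0.0878, adjusted p = 0.000128). In contrast Cdk4, the kinase that D cyclins bind, read 462, 390.1 and 400.1 CPM in LSK and 167, 166 and 185.4 CPM in ESC-derived libraries (-1.27 ± 0.11, adjusted p = 0.000369). Apex1, an endonuclease of base excision repair, fell the most of the 4, from 134, 142 and 146 to 44.7, 34.9 and 37.2 CPM (-1.85 ± 0.14, adjusted p = 0.000228). The groups did not overlap at any of these 4 genes, and their calls held under all 16 alternatives. Without LSK replicate 2 the list held 4 higher and 4 lower genes, and with library totals 4 and 11.

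Taken over both directions, cell cycle genes were called about as often as other tested genes in the same range of level. Both the S phase and the G2/M list stood at 38.1%, against 38.4%. By direction, 9.52% of S phase genes were higher and 28.6% lower, and of G2/M genes 33.3% and 4.76%. Tested genes in that range held 21.9% higher and 16.5% lower. Of 21 S phase genes 2 were higher and 6 lower, with a summed level of 3190 to 3238 CPM in LSK and 2537 to 2679 CPM in ESC-derived libraries. Rrm2, a subunit of ribonucleotide reductase, rose (1.13 ± 0.19, adjusted p = 0.00533), as did Slbp, which binds histone mRNA (0.64 ± 0.13, adjusted p = 0.0110). The falls included Rfc2, of the clamp loader (-1.39 ± 0.14, adjusted p = 0.000660), and Mcm7, of the replicative helicase (-0.86 ± 0.11, adjusted p = 0.00145). Of 21 G2/M genes 7 were higher and 1 lower, with a summed level of 1478 to 1613 CPM in LSK and 2277 to 2716 CPM in ESC-derived libraries. Ube2c (1.71 ± 0.14, adjusted p = 0.000342) and Cdc20 (1.17 ± 0.11, adjusted p = 0.000472), both of the anaphase-promoting pathway, rose, while the checkpoint kinase gene Bub1b fell (-1.04 ± 0.26, adjusted p = 0.0231). Without LSK replicate 2 the S phase list held 1 higher and 4 lower genes and the G2/M list 6 and 0, and the calls of Slbp and Bub1b were lost, with adjusted p of up to 0.0757 and 0.0872. That of Bub1b was also lost without LSK replicate 3 or ESC-derived replicate 2. The part of these cell cycle levels in the ribosome assembly results was not tested.

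**Figure D5:**
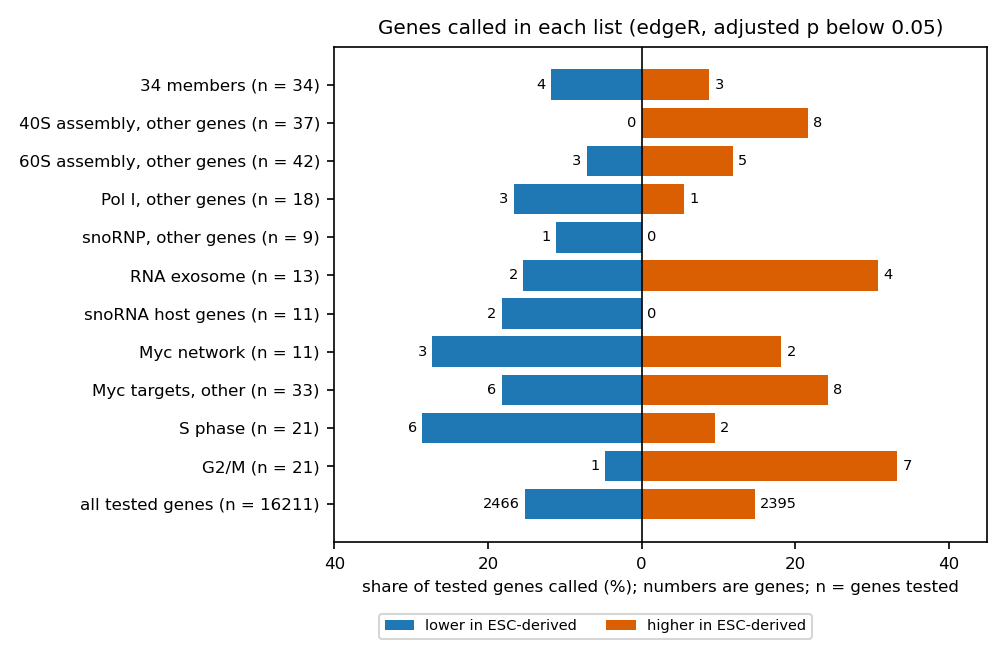
Share of tested genes called lower (left bars) and higher (right bars) in ESC-derived libraries, in percent, for the 34 genes, 10 pathway lists and all tested genes, with the number of genes at each bar. Further 40S assembly genes held 8 higher and 0 lower, against 3 higher and 4 lower among the 34, and all tested genes held 2395 higher and 2466 lower.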

How the data were processed

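RNA from 2000 sorted cells per library was turned into cDNA by the SMART-Seq v4 method (poly(A) priming, no strand marking) and sequenced after Nextera XT preparation, per the labels' protocols. HISAT, StringTie and the mouse build mm10 are named per the submitters' processing notes, without versions or roles. The authors deposited estimated counts for each Ensembl gene, not normalized and already whole numbers. Between 40.1 and 47.2% of values from 1 to 20 were divisible by 4, so a fragment was often worth about 4 counts and counts overstate fragments. The header names the 6 value columns in 1 field, and columns were assigned from the order of names there. Symbols, positions and snoRNAs come from GENCODE M21, which matched 55141 of 55401 IDs.

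Genes were filtered with filterByExpr, given TMM factors and tested by the edgeR 4.0.16 quasi-likelihood F test (R 4.3.3, robust, two-sided, Benjamini-Hochberg adjustment over 16211 genes, threshold 0.05). Each SE is the log2 fold change over the root of F. The 16 alternatives were DESeq2 1.42.0, limma-voom (limma 3.58.1), upper quartile and RLE scaling, plain library totals, no receptor genes, no low-count filter, at least 50 counts in 3 libraries, a replicate block, values divided by 4, and each library left out. Copies were sought with BLAST 2.17.0 at 95% identity over 200 bp or more. The members, lists, tests and alternatives were chosen with earlier results of these data known. The text names all 34 members, up to 2 higher and 2 lower genes of each list by adjusted p, the sort genes, and markers at 0 counts in a group.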

Additional observations from a re-analysis of the deposited data

How the results depend on the processing

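For the 34 genes, 468 of 544 fold changes under the alternatives kept direction and side of the threshold, 30 lost and 18 gained a call and 28 changed sign, all 28 at uncalled genes. Library totals gave 0 genes higher and 9 lower among the 34, and in the other lists 5 lower for RNA polymerase I, 5 higher and 1 lower for 40S, 3 higher for 60S, 3 lower for snoRNP, 1 higher for exosome, 4 higher and 11 lower for Myc targets, 4 lower for snoRNA hosts, 1 higher for S phase and 2 lower for G2/M. They also turned Nop56 (-0.23), Nop58 (-0.22), Nop16 (-0.23), Pes1 (-0.0142), Wdr43 (-0.12), Polr1c (-0.0953) and Ddx21 (-0.13). DESeq2 gave 7 lower among the 34, 3 higher for RNA polymerase I, 2 lower for 40S, 3 for snoRNP, 11 for Myc targets, 5 for snoRNA hosts and 2 for G2/M, and limma-voom 2 higher for RNA polymerase I and 1, 2 and 4 lower for 40S, snoRNP and snoRNA hosts. RLE, upper quartile scaling and the stricter filter gave 4 lower snoRNA hosts each, and the stricter filter and division by 4 gave 2 higher for RNA polymerase I. Nop56 was -0.00322, -0.00320 and -0.000508 with DESeq2, RLE and upper quartile scaling, and Nop16 -0.00477 and -0.00476 with DESeq2 and RLE. The cause was not tested.

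Same-numbered replicates did not deviate together (correlations 0.0112, 0.0449 and 0.0149), so the values showed no pairing by number. These correlations cannot tell whether same-numbered libraries were handled together. With the replicate block 3220 genes were called, 1732 higher and 1488 lower, and lower calls numbered 1 among the 34, 1 for RNA polymerase I, 1 for snoRNA hosts and 0 for G2/M by edgeR. The block also ended the calls of Myc (adjusted p = 0.0921), Fbl (0.0606), Rrp9 (0.0767) and Heatr1 (0.0538).

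With 1 library left out the group of 2 shares the spread estimate of the fit. Counts over all genes ran from 1466 to 2163 higher and 1250 to 2440 lower, and for the 34 from 0 to 3 and 1 to 3. Higher and lower counts ran from 1 to 2 and 0 to 3 for RNA polymerase I, 5 to 7 and 0 to 1 for 40S, 3 to 6 and 0 to 2 for 60S, 2 to 3 and 1 to 2 for exosome, 4 to 8 and 4 to 7 for Myc targets, 1 to 2 and 4 to 7 for S phase and 6 to 8 and 0 to 1 for G2/M. Lower counts ran from 0 to 2 for snoRNP, 2 to 5 for the Myc network and 1 to 4 for snoRNA hosts. Log2 fold changes ran from -0.0381 to 0.0844 for Nop56, -0.0434 to 0.0913 for Nop58, -0.33 to 0.22 for Nop2, -0.11 to 0.15 for Nop16, -0.22 to 0.00983 for Nop10, -0.27 to 0.22 for Gnl2, -0.0262 to 0.21 for Wdr43, -0.11 to 0.31 for Polr1c and -0.33 to 0.0834 for Noc2l.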
